A study of Mus musculus with 6 samples.

Results

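The Krüppel-like factor genes Klf2, Klf3, Klf4, Klf5, Klf6, Klf7, Klf9, Klf10, Klf13 and Klf15 were followed in maps of RUNX1 binding from mouse granulosa cells, which nurse the oocyte and make the steroid hormones of the follicle. These are 10 of the 21900 protein-coding genes of the gene table. A peak was assigned to a gene when its summit, the base with the most enrichment, lay in the gene body or within 50 kb of either end. Of the 51515 peaks in the 4 lists, 95 were assigned in this way. The 10 genes lie on different chromosomes, so no peak was assigned to more than 1 of them. Binding was measured by chromatin immunoprecipitation and sequencing (ChIP-seq) with an antibody to RUNX1, a transcription factor that binds DNA directly. All mice were CBA x C57BL/6 F1, 21 days old, and primed with eCG (equine chorionic gonadotropin, 5 IU), a hormone that makes follicles grow. The 0 h group (pre-ovulatory granulosa cells, 2 libraries) stood before human chorionic gonadotropin (hCG), the hormone that replaces the ovulatory surge of luteinising hormone. The 6 h group (peri-ovulatory granulosa cells, 2 libraries) was collected 6 h after 5 IU of hCG, which followed eCG by 46 h. The treatment label of the 0 h samples repeats the 6 h protocol, so those samples are taken as 0 h from their titles and timepoint tag. Each time point had 1 pooled input. The labels do not say how many mice gave each library or whether the replicates came from separate mice, so the spread between libraries may be technical in part. The lists hold binding and no expression, so the labelled cell type was not checked against its markers.

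Krüppel-like factors are transcription factors with zinc fingers at their C-terminal end that bind GC-rich sequences such as the GC box and the CACCC box, which they share with the Sp factors. The rest of the protein differs between members and sets whether a member activates or represses. Klf2, Klf4, Klf5, Klf6 and Klf7 are mostly known as activators. Klf3 recruits the co-repressor CtBP, and Klf9, Klf10 and Klf13 recruit the co-repressor SIN3A. Klf15 is known for its part in glucose and amino acid metabolism. Several members are induced quickly by hormones or growth factors, and Klf9 is known as a partner of the progesterone receptor in the uterus.

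The length of the lists bears on every count that follows. The 0 h lists held 948 and 3135 peaks and the 6 h lists 18761 and 28671. The genome-wide background, in reads per position, was between 2.13 and 2.77 in the 4 libraries. It was recovered from the authors' fold enrichment and p-value of each peak. A site at that background needed a summit pileup of 18 and 17 reads to enter the 0 h lists and 18 and 16 reads to enter the 6 h lists. A site without a peak therefore lies under such a limit, or under a higher one where the local background is higher, and is not shown to be unbound.

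RUNX1 peaks were found around all 10 genes in both 6 h libraries, and around 3 and 5 of them in 0 h replicates 1 and 2. The 0 h libraries had 3 and 13 peaks assigned to the members, a mean of 8.0 ± 7.1 (SD, n = 2). The 6 h libraries had 35 and 44, a mean of 39.5 ± 6.4 (SD, n = 2). The groups did not overlap, and the means differed 4.94 times, while the means of the whole lists differed 11.6 times. As a share of the list, the members took 0.316% (95% CI 0.0653 to 0.922) and 0.415% (95% CI 0.221 to 0.708) at 0 h. At 6 h they took 0.187% (95% CI 0.130 to 0.259) and 0.153% (95% CI 0.112 to 0.206). The share was thus higher in both 0 h lists, and the intervals, which are exact Clopper-Pearson and cover counting error only, overlap in part. With 2 libraries per group an exact permutation test cannot give a p below 0.33, so none of these differences can pass that test, and no other test was run on them.

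When only the 948 peaks with the lowest p-values of each library were kept, the higher number at 6 h was gone. The members then had 3 peaks in each 0 h library and 3 and 2 at 6 h. Those kept belonged to Klf2, Klf10 and Klf13 in 0 h replicate 1, to Klf2 and Klf13 in 0 h replicate 2, and to Klf10 and Klf13 in both 6 h libraries. Only Klf13 held such a peak in all 4 libraries.

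**Figure D1:**
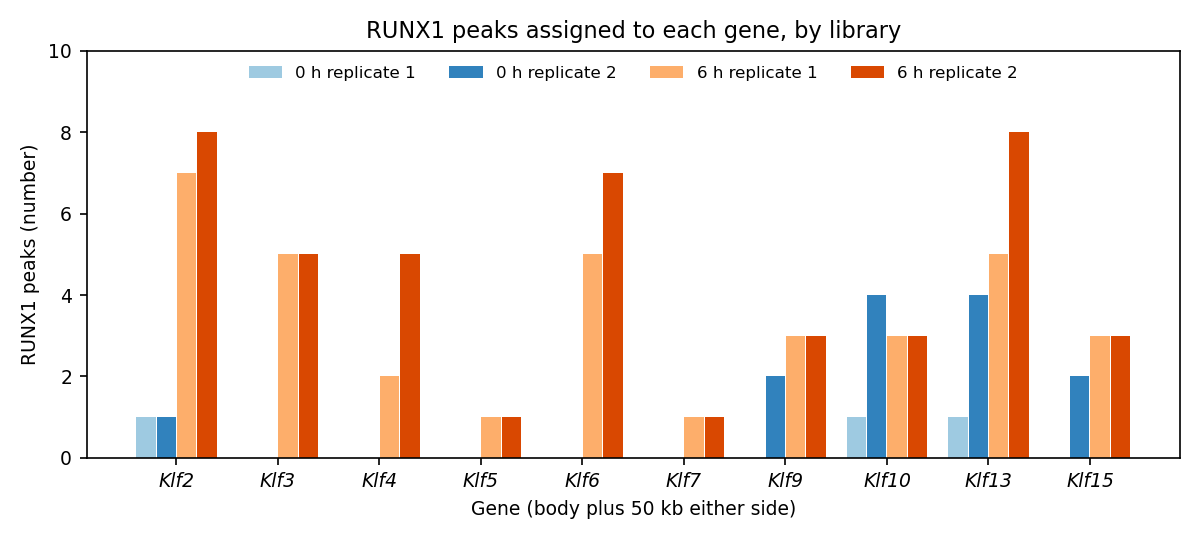
Number of RUNX1 peaks assigned to each Krüppel-like factor gene (gene body plus 50 kb either side) in each of the 4 libraries, as bars starting at 0. Klf3, Klf4, Klf5, Klf6 and Klf7 had no peak at 0 h, and Klf10 is the gene with more peaks in a 0 h library (4) than in either 6 h library (3).

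The genes differed in how many peaks they held. Klf2 had 1 peak in each 0 h library and 7 and 8 at 6 h. Klf13 had 1 and 4 at 0 h and 5 and 8 at 6 h. Klf6 had none at 0 h and 5 and 7 at 6 h, and Klf3 had none at 0 h and 5 in each 6 h library. Klf4 went from none to 2 and 5. Klf9 and Klf15 had none in 0 h replicate 1, 2 in 0 h replicate 2 and 3 in each 6 h library. Klf5 and Klf7 had the fewest, with none at 0 h and 1 in each 6 h library. In 9 of the 10 genes both 6 h libraries had more peaks than both 0 h libraries, which held for 64.6% of all protein-coding genes. The exception was Klf10, with 1 and 4 peaks at 0 h and 3 in each 6 h library.

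These counts are set against those of all protein-coding genes under the same rule. In 0 h replicates 1 and 2, 3 and 5 of the 10 genes had a peak, against 9.42% and 28.2% of protein-coding genes. At 6 h all 10 had a peak in both libraries, against 69.3% and 76.1%. The median number of peaks per gene at 6 h was 3 and 4 for the members and 2 and 3 for all protein-coding genes. The median gene length was 20813 bp for the members and 17146 bp for all. Within the set, the mean number at 6 h ranged from 1 in Klf5 and Klf7, where 28.5% of protein-coding genes had fewer, to 7.5 in Klf2, where 92.3% had fewer.

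Peaks of both replicates of a time point that shared at least 1 bp were merged into replicated regions. At 0 h this gave 3 regions, 1 each for Klf2, Klf10 and Klf13, so 3 of 10 genes had one against 8.75% of protein-coding genes. With a window of 10 kb or 1 kb only 1 of the 10 genes had one, and the share of all genes under those windows is not given here. At 6 h the merging gave 29 regions and all 10 genes had at least 1, against 68.8%. The 6 h regions numbered 7 for Klf2, 4 each for Klf3 and Klf6, 3 each for Klf10 and Klf13, 2 each for Klf4, Klf9 and Klf15, and 1 each for Klf5 and Klf7. Of the 79 peaks at 6 h, 66 lay in these regions and 13 were in 1 library only. Of the 16 peaks at 0 h, 6 lay in replicated regions and 10 did not, all 10 of them from replicate 2.

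Of the 29 regions at 6 h, 8 overlapped a peak of a 0 h library, or 27.6% (95% CI 12.7 to 47.2), against 16.5% of all replicated 6 h regions. In 3 of the 8 the 0 h binding was itself replicated, which makes 10.3% of the 29 (95% CI 2.19 to 27.4) where all 6 h regions have 4.6%. Both intervals include the share of all regions, and regions of 1 gene are not independent. The other 5 rest on 0 h replicate 2 alone, and without that library the share was 10.3%. All 3 replicated 0 h regions overlapped a replicated 6 h region, so no member had a replicated site that was found only before hCG. The 6 h lists are far longer, and the share of all replicated 0 h regions that do so is not given here. The overlap is therefore not read as a trait of the members.

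**Figure D2:**
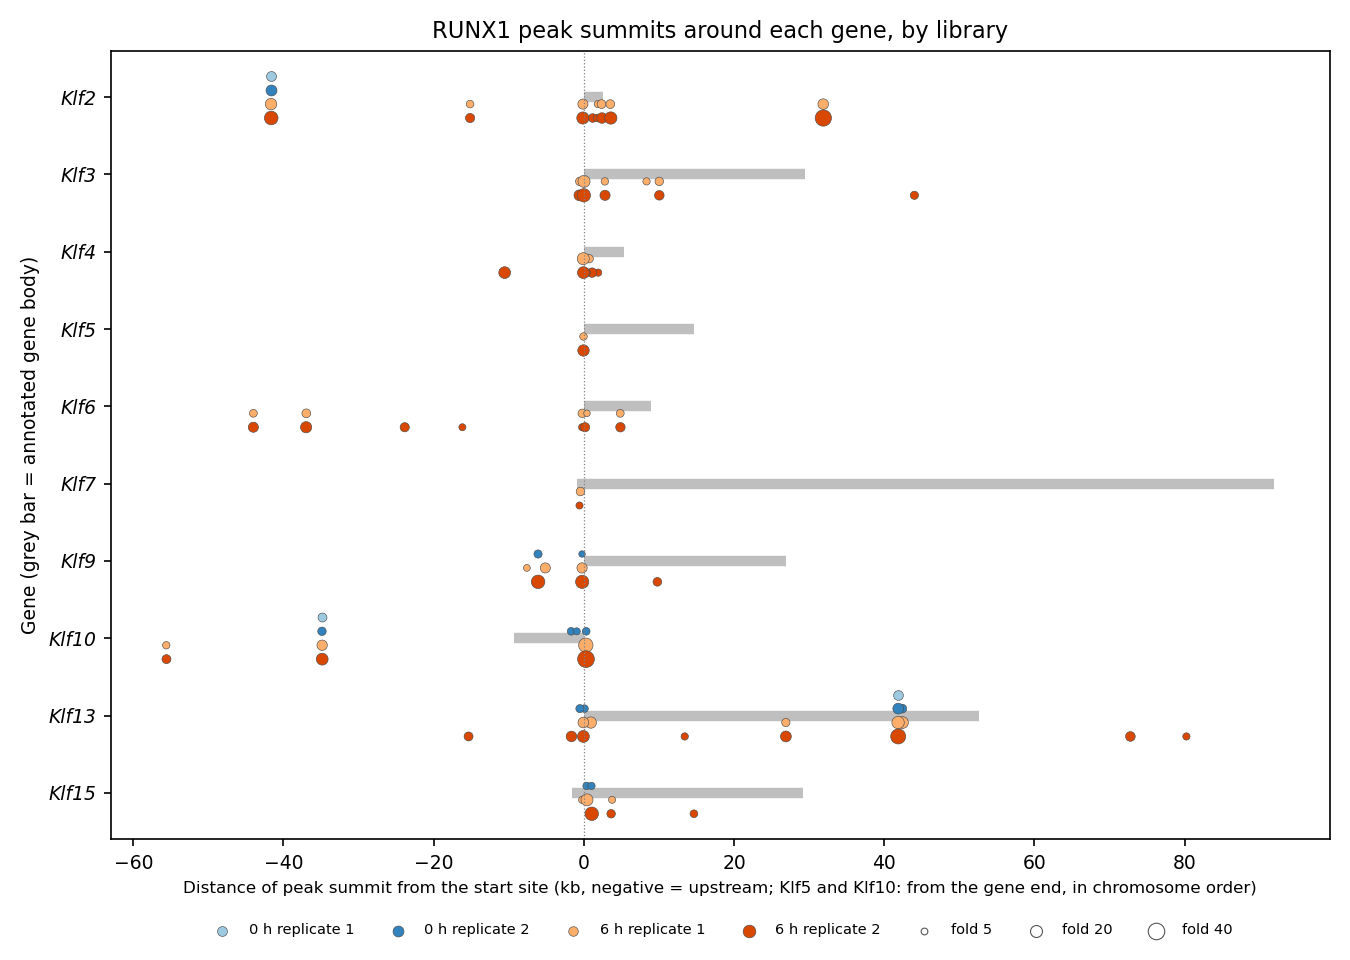
Position of every RUNX1 peak summit relative to the listed start of each gene (kb, negative is upstream; for Klf5 and Klf10, which have no listed start, relative to the gene end beside their region, in chromosome order). Rows are genes, colours are libraries, point area grows with the authors' fold enrichment and grey bars are gene bodies; 6 h points lie near 0 in the 8 rows with a listed start, while for Klf5 and Klf10 the choice of the end places them there, and points of both 0 h libraries stack only at the distal sites of Klf2 and Klf10 and inside Klf13.

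At 6 h, 9 of the 10 genes had replicated binding within 1 kb of the start, or, for 2 of the 9, of a gene end chosen because it lay nearer to the peak. The start was taken from the RefSeq promoter table (GRCm38), which lists 8 of the 10; for Klf5 and Klf10 that nearer gene end was used instead, and it may not be the start. A replicated 6 h region with a summit of both libraries within 1 kb of the start was present in 7 of the 8 genes with a listed start, against 39.7% of the 17492 protein-coding genes with one. Klf5 and Klf10 had such a region at a gene end. The gene outside the rule was Klf15, which had summits at -221 and 419 bp from the start in replicate 1 (negative is upstream) and its only nearby summit 1048 bp downstream in replicate 2. Klf3 and Klf4 had 2 such regions each, so the 9 genes held 11. At 0 h no member had a replicated region at the start, and 1.56% of protein-coding genes did.

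Strength was compared in 1 region per gene, that with the highest mean fold percentile among those with a summit within 1 kb of the start, or of the gene end for Klf5 and Klf10, in at least 1 library. This takes in the region of Klf15 and leaves out the second start regions of Klf3 and Klf4. The measure was the summit pileup divided by the genome-wide background of the library, called the scaled pileup below. It corrects for depth, and not for the local background or for how well the immunoprecipitation worked. For Klf10 it was 60.5 and 88.1 in the 6 h replicates, for Klf13 59.0 and 77.8, and for Klf2 44.6 and 57.7. Klf9 had 34.4 and 64.7 and Klf15 had 33.3 and 64.2. Among these 10 regions the lowest means were those of Klf5, with 12.0 and 29.1, and of Klf6, with 23.5 and 27.2. The second start region of Klf4, not among the 10, had 15.6 and 24.8. Replicate 2 was the higher in all 10 genes. In the order of the means, the neighbours whose values did not overlap were Klf13 and Klf2, and Klf4 and Klf7. The lower value of Klf10 lay above both values of Klf2, Klf3, Klf4, Klf5, Klf6 and Klf7 and below the higher values of Klf9, Klf13 and Klf15. This order is that of the scaled pileup only. By mean fold percentile, which takes in the local background, the lowest of the 10 regions was that of Klf7, at 31.1.

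**Figure D3:**
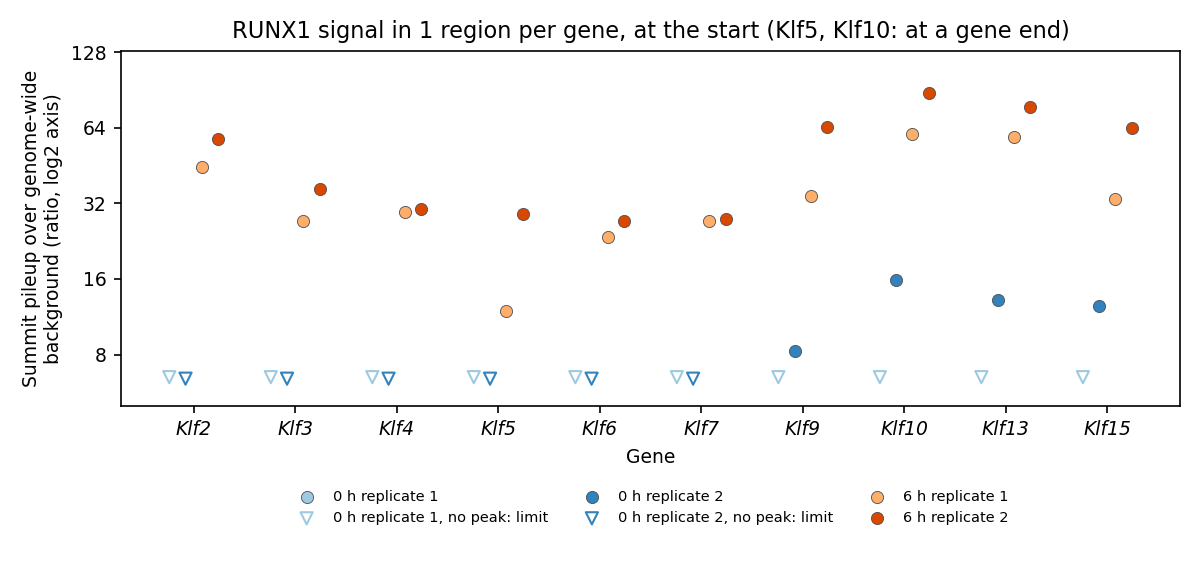
Scaled pileup (summit pileup over the genome-wide background of the library, log2 axis) in 1 region per gene, 1 point per library: at the listed start for 7 genes, at a gene end for Klf5 and Klf10, and just past the 1 kb limit in 1 library for Klf15. Open triangles mark 0 h libraries without a peak, placed at the pileup that a site at the genome-wide background needs to be called; Klf10 is highest at 6 h, at 60.5 and 88.1, and the 4 filled 0 h points, all of replicate 2, belong to Klf9, Klf10, Klf13 and Klf15.

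At 0 h, none of these 10 regions overlapped a peak of replicate 1, and 4 of them overlapped a peak of replicate 2. In that library the scaled pileup was 8.29 at Klf9, 15.8 at Klf10, 13.2 at Klf13 and 12.4 at Klf15, below both 6 h values of the same gene in each case. In the remaining 6 genes the pileup needed for a call at the genome-wide background was 6.50 and 6.41 on the same scale in 0 h replicates 1 and 2. Of the start regions with a listed start, 2 of 7 overlapped a 0 h peak, against 21.9% of the 6950 protein-coding genes with such a region. In these 7 genes the start region had a median width of 1114 bp and a median scaled pileup of 31.9, against 760 bp and 25.0 over the 6950 genes.

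The sequence just upstream of the start is shown for 4 of the 6 genes in which both 6 h libraries had a summit inside the listed promoter window, from 250 bases before the start to 50 after it: Klf3 and Klf4 for their dense GC boxes, Klf13 for its RUNX cores, and Klf9 because it holds neither and was also called at its start in 0 h replicate 2. The printed part is the 250 bases before the listed start, so the replicate 1 summit of Klf3, 22 bp downstream of the start, lies just outside it. Each sequence reads 5′ to 3′ on the strand of the gene and comes from RefSeq on GRCm38. Capitals mark the GC box GGGCGG, which Sp and Krüppel-like factors bind, the core TGTGG of the RUNX motif, and their reverse complements CCGCCC and CCACA. These traits are not particular to the genes shown. Klf2, not shown, held 2 RUNX cores and 2 GC boxes, and Klf13 also held 3 GC boxes.
Klf3, chr5:64803271-64803520, plus strand: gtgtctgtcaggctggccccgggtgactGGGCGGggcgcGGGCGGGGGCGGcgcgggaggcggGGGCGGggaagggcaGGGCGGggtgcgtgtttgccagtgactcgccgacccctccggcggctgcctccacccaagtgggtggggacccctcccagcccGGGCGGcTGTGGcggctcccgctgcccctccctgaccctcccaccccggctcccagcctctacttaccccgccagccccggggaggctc
Klf4, chr4:55532476-55532725, minus strand: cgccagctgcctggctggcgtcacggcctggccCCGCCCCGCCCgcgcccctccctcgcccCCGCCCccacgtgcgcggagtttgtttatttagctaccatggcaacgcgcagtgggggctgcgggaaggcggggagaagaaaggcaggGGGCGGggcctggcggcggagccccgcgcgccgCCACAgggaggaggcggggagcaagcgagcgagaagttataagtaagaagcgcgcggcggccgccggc
Klf13, chr7:63938916-63939165, minus strand: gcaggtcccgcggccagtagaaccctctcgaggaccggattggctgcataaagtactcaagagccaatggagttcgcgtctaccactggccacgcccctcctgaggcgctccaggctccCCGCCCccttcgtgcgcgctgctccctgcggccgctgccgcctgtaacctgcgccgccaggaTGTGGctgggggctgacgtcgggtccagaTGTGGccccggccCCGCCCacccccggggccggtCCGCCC
Klf9, chr19:23140976-23141225, plus strand: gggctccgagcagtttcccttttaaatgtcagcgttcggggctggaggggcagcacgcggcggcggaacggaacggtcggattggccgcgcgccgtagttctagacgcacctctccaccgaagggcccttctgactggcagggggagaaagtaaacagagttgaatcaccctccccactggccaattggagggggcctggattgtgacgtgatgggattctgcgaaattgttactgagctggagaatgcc

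The RUNX motif TGTGGT, or its reverse complement ACCACA, was in none of the 8 listed member promoters. It was in 12.4% of the 21263 listed promoters of protein-coding genes and in 10.1% of the promoters of genes with a 6 h start region. The shorter core TGTGG or CCACA, which is contained in the longer motif, was in 4 of 8 (Klf2, Klf3, Klf4 and Klf13), against 47.0% of protein-coding promoters. A GC box was in 7 of 8, all but Klf9, against 42.6% of protein-coding promoters and 63.3% of those of genes with a 6 h start region. The GC content of the 250 bases had a median of 71.4% in the members and 55.6% in protein-coding promoters. A match describes these letters only, the absence of one says nothing about RUNX1, and the sequence under the other regions was not used here.

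Among the activators, Klf2 had the most binding. Klf2 is best known for keeping blood vessel endothelium quiescent. Its 7 replicated 6 h regions lay between -41654 bp and 31884 bp from the start (negative is upstream), and 6 of them overlapped no 0 h peak. Its start region (chromosome 8, 72318578 to 72319760) had its summit 125 and 132 bp upstream of the start, with a fold enrichment of 13.7 and 20.8 in the 6 h replicates. Fold enrichment is the authors' value for ChIP over local background at the summit, and its rank within the list is given as a percentile, since folds of different lists are not on a common scale. The start region ranked at percentiles 80.9 and 85.9. A region with its summit 926 and 995 bp past the far end of the gene (72322087 to 72323084) reached folds of 9.85 and 21.2. The most distant downstream region (72350703 to 72351441) reached folds of 15.1 and 38.7, which are percentiles 84.9 and 97.2, and lay inside the neighbouring gene Eps15l1, so its assignment to Klf2 rests on the window alone.

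Klf4, one of the factors used to reprogram cells to pluripotency, and Klf6, an early response gene, had no 0 h peak. The start region of Klf4 (chromosome 4, 55532413 to 55533071) had its summit 79 and 61 bp upstream, with a fold of 20.2 and 19.4 at percentiles 93.2 and 83.6. A weaker region (55531013 to 55532318) lay just inside the gene, with a fold of 8.77 and 11.7. In 6 h replicate 2 alone, a peak 10546 bp upstream of Klf4 had a fold of 19.2. Klf6 had its start region on chromosome 13 at 5860746 to 5861799, with a fold of 8.88 and 11.0 at percentiles 52.9 and 52.4, near the middle of both lists. Another region lay inside Klf6, and 2 lay 36956 and 44006 bp upstream (summits of replicate 1), with folds between 7.45 and 17.2. The start region of Klf4 thus ranked above that of Klf6 in both 6 h libraries.

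Klf5, which promotes proliferation in epithelia, and Klf7, known from neurons, had 1 peak in each 6 h library, at a gene end for Klf5 and near the listed start for Klf7. In fold percentile, the replicates differed more at these 2 than at the other 6 h regions of the 10 genes, while the scaled pileup of Klf7 was close, at 27.2 and 27.7. The Klf5 region (chromosome 14, 99298367 to 99299466) had a pileup of 33 and 62 reads and folds of 6.78 and 18.1, which are percentiles 26.8 and 81.0. The Klf7 region (chromosome 1, 64121641 to 64122425) had a pileup of 75 and 59 reads and a fold of 9.23 and 5.82, at percentiles 56.1 and 6.20. Its summit lay at -563 and -586 bp from the listed start, still in the annotated gene body. The summit of replicate 1 also lay in the long non-coding RNA Gm35880. No peak was called in the rest of the 92898 bp of Klf7, the longest of the 10 genes.

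Klf3, the member that works through CtBP, had 4 replicated regions at 6 h and no peak at 0 h. The region on its start (chromosome 5, 64803338 to 64804451) had its summit 22 bp downstream of the start in replicate 1 and 2 bp upstream in replicate 2. Its fold was 20.2 and 25.2, at percentiles 93.1 and 90.8. A further region at -550 and -596 bp (64802561 to 64803198) had a fold of 8.88 and 15.9. Both lie in the protein-coding gene model Gm38457, which overlaps the start of Klf3, so they cannot be given to either gene from position. The remaining 2 regions lay in the first 10047 bp of Klf3, with folds between 6.53 and 13.9, and the nearer of them (64806110 to 64806757) also lies in Gm38457.

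Of the members that work through SIN3A, Klf10, first described as an early target of TGF-beta, held the highest scaled pileup among the regions at a start or gene end (chromosome 15, 38298549 to 38302004). Its fold was 29.7 and 41.1 at 6 h, at percentiles 98.0 and 97.7, and it was the only replicated region of the 10 genes above percentile 95 in both 6 h lists. It spanned 3456 bp over an end of Klf10, and its replicate 1 summit lay in the long non-coding RNA Gm35248. In 0 h replicate 2 the same stretch held 3 separate peaks of 353, 776 and 680 bp, with folds of 7.12, 5.63 and 7.20 at percentiles 46.2, 15.3 and 49.6. A single peak of 3121 and 3456 bp covered it in the 6 h replicates. The higher peak count of Klf10 in 0 h replicate 2 thus comes from 3 separate calls in a stretch that was 1 call at 6 h. The highest pileup there was 42 reads in that library, against 167 reads in 6 h replicate 1 and 188 in replicate 2.

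Klf13, which acts in T cells and in the control of lipid and steroid genes, held the widest region, 4581 bp across its start (chromosome 7, 63936170 to 63940750). The 6 h peaks with the highest pileup, 163 and 166 reads, lay 66 and 65 bp upstream of the start. In 0 h replicate 2 the region overlapped 2 peaks, 80 bp downstream and 530 bp upstream of the start, with a pileup of 34 and 35 reads. A weaker region inside the gene at 63911482 to 63912450 was found at 6 h, with a fold of 8.50 and 16.1, and overlapped no 0 h peak.

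Klf9, a gene induced by glucocorticoids and thyroid hormone, had 2 replicated regions at 6 h and both overlapped a peak of 0 h replicate 2. The start region (chromosome 19, 23140696 to 23142392) had its summit 240 and 221 bp upstream, with folds of 14.1 and 24.8, which are percentiles 82.4 and 90.4. In 0 h replicate 2 the peak lay 246 bp upstream with a fold of 4.47, at percentile 3.52 of its list, the lowest rank of any 0 h peak of the members. The other region (23133402 to 23136547), whose replicate 1 summit lay in the long non-coding RNA gene 2410080I02Rik, covered 3146 bp upstream of Klf9, with a fold of 13.6 and 26.0. Its highest summit lay 5128 bp upstream of the start in replicate 1 and 6095 bp in replicate 2, and the 0 h peak lay 6103 bp upstream with a fold of 8.21.

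Klf15, the metabolic regulator, had its main region just downstream of the start (chromosome 6, 90462108 to 90463844), with a fold of 20.1 and 25.8 at percentiles 93.0 and 91.2. In 0 h replicate 2 this region overlapped 2 peaks, 363 and 1013 bp downstream of the start, with folds of 6.61 and 6.28. The strongest 6 h summits were 419 bp downstream in replicate 1 and 1048 bp in replicate 2. In 6 h replicate 1 the region held another peak, at -221 bp, with a fold of 6.07. A second region inside the gene (90466082 to 90466464) was weak, with folds of 5.67 and 9.07, which are percentiles 13.3 and 36.4, and overlapped no 0 h peak.

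The 3 sites called in all 4 libraries lay away from the starts. The site inside Klf13 spanned 63896807 to 63897258 at 0 h and 63896158 to 63897983 at 6 h, with all 4 summits within 26 bp, 41849 bp downstream of the start in 0 h replicate 1 and also inside the long non-coding RNA Gm27252. The pileup reached 75 reads in 0 h replicate 1 and 104 in replicate 2, against 280 and 356 in the 6 h replicates. In each of the 4 libraries this was the highest pileup of any peak assigned to the 10 genes. Its fold was 12.6 and 16.1 at 0 h, at percentiles 90.9 and 97.1, and 21.5 and 32.6 at 6 h, at percentiles 94.2 and 95.2. The scaled pileup was 27.1 and 39.2 at 0 h against 101 and 167 at 6 h, a difference of 2.00 on the log2 scale (exact permutation test, two-sided, p = 0.33, the smallest possible).

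The Klf2 site spanned 72277233 to 72277585 at 0 h and 72276917 to 72277685 at 6 h, at -41654 bp from the start of Klf2 in 6 h replicate 1 and outside annotated genes. The nearest protein-coding gene is Ap1m1, at 20022 bp. The summit held 59 and 67 reads before hCG and 105 and 124 after it, and its scaled pileup was 21.3 and 25.3 against 38.0 and 58.1. The difference was 1.02 on the log2 scale (exact permutation test, two-sided, p = 0.33). It ranked at percentiles 92.3 and 97.3 of the 0 h lists and 90.6 and 91.7 of the 6 h lists. No other peak was assigned to Klf2 before hCG.

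The Klf10 site spanned 38265733 to 38266050 at 0 h and 38265698 to 38266109 at 6 h, 25604 bp from the nearer end of the gene in 0 h replicate 1 and outside annotated genes. Its pileup was 39 and 33 reads at 0 h and 60 reads in each 6 h library, and its scaled pileup was 14.1 and 12.4 against 21.7 and 28.1. The difference was 0.90 on the log2 scale (exact permutation test, two-sided, p = 0.33). At all 3 sites both 6 h values lay above both 0 h values, as at 91.3% of the 805 sites of the series that were called in all 4 libraries. The median difference over those 805 sites was 1.85, so the differences at Klf2 and Klf10 lay below the median, at percentiles 18.01 and 14.78, and that at Klf13 lay near it, at percentile 57.4. With the authors' fold in place of the scaled pileup, though folds of different lists are not on a common scale, the differences were 0.59 for Klf2, 0.81 for Klf10 and 0.90 for Klf13, against a median of 1.37.

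**Figure D4:**
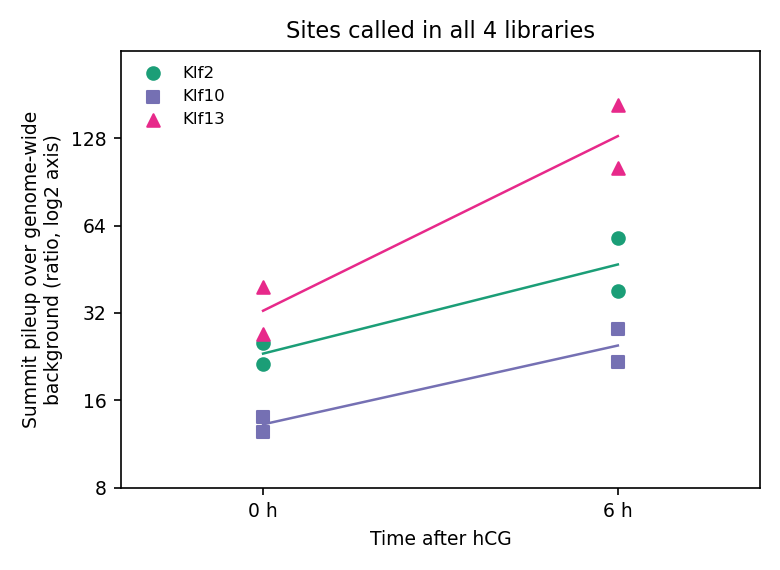
Scaled pileup (summit pileup over the genome-wide background of the library, log2 axis) at the 3 sites called in all 4 libraries, 1 point per library and a line between the means of the log2 values. Both 6 h values lie above both 0 h values at each site, with 101 and 167 at 6 h for Klf13.

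The rest of the family was taken as 16 further genes, Klf1, Klf8, Klf11, Klf12, Klf14, Klf16, Klf17 and Sp1 to Sp9. Of these, 12 had a replicated region at 6 h, against 68.8% of protein-coding genes, and 1, Klf16, had one at 0 h, against 8.75%. In 11 of the 16 both 6 h libraries had more peaks than both 0 h libraries, against 64.6%. Of the 12 with a listed start, 7 had a 6 h start region, against 39.7%: Klf11, Sp1, Sp2, Sp3, Sp4, Sp5 and Sp9. Klf8 and Klf14, 2 of the 16, had no peak in any list, as did 5194 of the 21900 protein-coding genes. Klf16 had 2 and 3 peaks at 0 h and 8 in each 6 h library. The windows of some of the 16 genes overlap, such as those of Sp1 and Sp7 and of Sp2 and Sp6. A peak can thus count for more than 1 of them.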

How the data were processed

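The libraries were sequenced from 1 end with 75 nt reads, per the labels' protocols. The submitters' processing notes name Bowtie2 2.2.5, MACS2 and mm10 (GRCm38), and the MACS2 version and settings are not given in the sources used here. The authors deposited 1 peak list per ChIP library, called against an input per the file names and peak names, and the inputs were not analysed here on their own. The deposited values are fold enrichment (a ratio), the −log10 p and −log10 q, the summit position, and a score, left aside because it only restates the −log10 p.

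Pileup and background were solved from fold and −log10 p (pseudocount 1, misfit at most 0.005, 100% of peaks), after a test on simulated data. Coordinates count from 1. Genes, starts and promoter sequences come from RefSeq on GRCm38.p6, which gives no start for Klf5 and Klf10. Groups and replicate numbers come from the titles. No test across genes was run. All 10 members are named, and regions are named by rank in their list or presence at 0 h. Members, gene lists and alternatives were chosen with earlier results of these data known. The TGTGG core, the 2 kb distance and the use of fold at shared sites were added after the values were seen. An exact test for single values was planned, but the comparison of scaled pileup at the shared sites was not. The genome sequence was not used here. Python 3.11.15, pandas 2.3.3 and scipy 1.17.1 were used.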

Additional observations from a re-analysis of the deposited data

How the results depend on the processing

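The alternatives that left out no library gave 97 values, of which 72 stayed within the spread between replicates, the confidence interval or, for counts, a factor of 1.5, while 24 moved past that and 1 reversed. That spread is wide at 0 h. Keeping 948 peaks per library reversed the difference in peak number (log2 of count + 1, 6 h minus 0 h) from 2.43 to -0.21. The difference in the share of the list, -0.196 percentage points, became -0.0527. The same setting gave a mean of 2.5 members with a peak at 0 h and 2 at 6 h, 2 members with a replicated 6 h region, 2 such regions (50% with a 0 h peak), 1 member with a 6 h start region, a mean of 0 and 1.5 summits within 1 kb of a start at 0 h and 6 h, and a mean of the libraries' median fold percentiles of 90.7 at 0 h (reported setting 70.2) and 22.7 at 6 h (reported setting 59.9). With a −log10 q of at least 20 the difference in share was -0.396 points, the mean number of 0 h summits within 1 kb of a start was 0.5, the percentile was 60.9 at 0 h and 68.4 at 6 h, and 18.2% of the 6 h regions overlapped a 0 h peak. Windows of 10 kb and 1 kb gave differences in share of -0.101 and -0.0941 points, 2.5 members with a 0 h peak and, at 0 h, 1 member with 1 replicated region. An overlap of 50% of both intervals left 8.33% of the 6 h regions with a 0 h peak. With fold in place of the scaled pileup, the log2 differences at the shared sites were 0.59 for Klf2 and 0.90 for Klf13.

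Leaving out each library in turn, the difference in peak number ran from 1.52 to 3.33 and that in share from -0.245 to -0.146 points. Where a time point was left with 1 library, each peak of that library counted as a region, so such regions are not replicated. At 0 h the members with a region so counted ran from 3 to 5 and the regions from 3 to 13. The summits near a start ran from 0 to 6, the members with a peak from 3 to 5 and the percentile from 49.6 to 90.9. The upper counts come from 0 h replicate 2 alone. At 6 h the regions so counted ran from 29 to 44 (the peaks of replicate 2 alone). The members with a start region ran from 9 to 10 (replicate 1 alone), and the share with a 0 h peak from 10.3% to 27.6%. The sites ran from 0.71 to 1.33 for Klf2, 0.72 to 1.09 for Klf10 and 1.64 to 2.36 for Klf13. With the replicate number as a block the difference in peak number was again 2.43, with 3.17 and 1.68 within replicates 1 and 2. The labels do not say whether libraries with the same number belong together. The correlation of their deviations was -0.029 over 21900 genes. Most genes had no 0 h peak, so this value cannot settle whether the libraries are paired.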
